A study of Mus musculus with 6 samples.

Results

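The circadian clock genes *Per1*, *Per2*, *Per3*, *Cry1*, *Cry2*, *Arntl*, *Clock*, *Npas2*, *Nr1d1* and *Dbp* were described in brain RNA-seq of mice that overexpress the human long non-coding RNA *AP1AR-DT*, which the labels call AC109347.1. They were chosen by symbol, and all 10 were found among the 52390 genes of the deposited count table. All 10 passed the filter on low counts, as did 21844 genes in all. The study made this model to ask what a gain of *AP1AR-DT*, a transcript higher in bipolar disorder, does to the brain.

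The 3 *AP1AR-DT* OE mice received a recombinant adeno-associated virus (rAAV) in which the human synapsin I promoter, active in neurons, drives *AP1AR-DT* and a CMV promoter drives the fluorescent protein EGFP. The 3 control mice were wild type mice given an empty vector with no insert. By the study's methods all were C57BL/6 males 8 weeks old when the virus was placed in the medial prefrontal cortex (mPFC), and were housed in alternating light and dark. The labels give the tissue as brain, while the study's text gives the mPFC. The hour at which tissue was taken was not given in the sources used here. The OE columns do not tell which mouse they came from, so these libraries are called OE A, OE B and OE C, while the control libraries carry the mouse numbers 1 to 3. *AP1AR-DT* is a human gene with no row in the mouse table, so its level was not analysed here.

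In the core loop of the circadian clock, the proteins BMAL1 (from *Arntl*) and CLOCK, or its paralog NPAS2, bind E-box sequences and switch on the *Per* and *Cry* genes, whose proteins then block this activation. In a second loop *Nr1d1*, itself an E-box target, encodes the repressor REV-ERBα, which acts on *Arntl* through the sites that the activating ROR proteins also use. *Dbp*, a further E-box target, encodes an activator that binds D-box sequences and carries the rhythm to output genes. *Dbp*, *Nr1d1* and the *Per* genes peak at another time of day than *Arntl*, *Clock*, *Npas2* and *Cry1*, although *Cry1* is also an E-box target.

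The promoters of the repressor genes are shown because they hold the sequences through which these loops act. The RefSeq promoter table used here (GRCm38.p6) was matched for 9 of the 10 genes, all but *Per2*, with 13 windows of 250 bases before a start. On both strands, the windows were searched for the E-box CACGTG, the E'-box CACGTT, the D-box TTATGTAA or TTATGCAA, the RORE TAGGTCA or TGGGTCA, and the cAMP response element TGACGTCA. Each window is printed 5′ to 3′ on the strand of its gene, with the matches in capitals. An E'-box on the other strand reads AACGTG. No matches overlapped.
*Per1*, chr11:69098699-69098948, plus strand: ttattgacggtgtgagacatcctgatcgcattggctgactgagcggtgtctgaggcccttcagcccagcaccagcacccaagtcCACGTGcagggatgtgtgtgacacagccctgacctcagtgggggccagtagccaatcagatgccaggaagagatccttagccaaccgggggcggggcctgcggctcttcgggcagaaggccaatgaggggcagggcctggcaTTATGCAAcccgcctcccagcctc
*Per3*, chr4:151044666-151044915, minus strand: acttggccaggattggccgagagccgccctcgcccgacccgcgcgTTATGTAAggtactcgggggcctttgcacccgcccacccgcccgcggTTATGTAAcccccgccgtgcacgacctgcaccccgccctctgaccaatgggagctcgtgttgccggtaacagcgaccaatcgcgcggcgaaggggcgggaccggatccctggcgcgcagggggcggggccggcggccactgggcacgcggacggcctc
*Cry1*, chr10:85185055-85185304, minus strand: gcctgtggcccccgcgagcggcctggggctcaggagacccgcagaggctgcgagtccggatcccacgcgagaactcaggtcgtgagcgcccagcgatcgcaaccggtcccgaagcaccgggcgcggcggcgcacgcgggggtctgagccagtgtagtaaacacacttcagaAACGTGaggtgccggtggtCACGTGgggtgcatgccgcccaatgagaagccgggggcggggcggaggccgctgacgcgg
*Cry2*, chr2:92434070-92434319, minus strand: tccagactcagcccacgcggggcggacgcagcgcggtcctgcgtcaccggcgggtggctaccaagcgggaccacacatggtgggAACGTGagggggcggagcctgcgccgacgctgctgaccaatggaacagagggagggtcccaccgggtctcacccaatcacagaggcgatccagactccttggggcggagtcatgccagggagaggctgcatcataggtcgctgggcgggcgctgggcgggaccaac

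The printed *Per1* window held an E-box 166 bases and a D-box 24 bases before the start, and its other window, chr11:69099902-69100151, held none of the motifs. *Cry1* had an E-box at 60 and an E'-box at 79 bases, *Cry2* had an E'-box at 166 bases, and *Per3* had D-boxes at 205 and 158 bases. *Nr1d1* had an E'-box at 28 bases, and its window is not printed. The windows of *Arntl*, *Clock*, *Npas2* and *Dbp* held none of these letters, and neither the RORE nor the cAMP response element was found in any of the 13. Among 32851 windows of all genes, 6.02% held the E-box, 3.85% the E'-box, 1.5% the D-box, 5.38% the RORE and 1.55% the cAMP response element. A match is a match of letters and not a measured binding site.

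Library totals ran from 42061721 to 54668294 counts, and no pair of libraries was alike within counting noise. The check of the tissue went against a uniform cortical dissection. The 5 markers of cortical excitatory neurons summed to between 23.0 and 350 normalized CPM (counts divided by the TMM-scaled library size) in controls and to between 102 and 600 in OE libraries. The vesicular glutamate transporter *Slc17a7* was at 3.86 in control 2 and 463 in OE B, and *Neurod6*, a defining cortical marker, was at 0.0803 in control 2. The 5 striatal markers summed to 1138 in OE A and between 119 and 552 in the other libraries. The 7 hypothalamic markers summed to 616 in control 2 and between 8.01 and 76.2 elsewhere, and the 7 choroid plexus markers summed to 3938 in control 3 and at most 74.3 elsewhere. Control 3 was also highest in the thalamic and oligodendrocyte lists, at 661 and 9831. In bulk tissue, fewer cells of a type and less RNA per cell cannot be told apart, so every clock gene value below is an average over the cell types in that piece of tissue.

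At the study's thresholds for differentially expressed genes (DEGs), P under 0.05 and |Log2FC| above 0.32, 4 of the 10 clock genes differed between the groups by edgeR's quasi-likelihood test. *Per1*, *Cry2* and *Dbp* were higher and *Clock* was lower in *AP1AR-DT* OE mice. The background is high, since 12.2% of all genes tested passed these thresholds, 5.10% upward and 7.15% downward. None of the 10 had a Benjamini-Hochberg adjusted P under 0.05 by edgeR, where 0.0275% of all genes did. None had one by DESeq2 either, where 2.80% of the 16278 genes given an adjusted P did. The lowest adjusted P of any clock gene was 0.295 by edgeR and 0.119 by DESeq2, in both cases for *Clock*. The median Log2FC of the 10 was 0.16, beside -0.014 for all genes tested, with 7 above and 3 below 0. The groups did not overlap for 4 of the 10, the same 4 genes, and for 22.4% of all genes tested. With 3 mice against 3, an exact permutation test cannot go below 0.1, which those 4 genes reached.

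The calls were also made without controls 2 and 3, the libraries with hypothalamic, thalamic or choroid plexus markers, so that the lone control was assumed to vary like the OE mice. None of the 10 clock genes then passed the thresholds, while 7.59% of all genes did. The Log2FC was 0.34 for *Dbp*, 0.27 for *Cry2*, 0.063 for *Per1* and -0.25 for *Clock*. The libraries kept still differed in regional markers. Control 1 summed to 48.7 in the cortical excitatory list, against 102 to 600 in OE libraries. In the striatal list it summed to 552, and OE A to 1138. The 5 endothelial markers, summed, were higher in every OE library (74.0 to 107 normalized CPM) than in any control (59.5 to 65.7). The 5 astrocyte markers, summed, were lower (1703 to 1755 against 1813 to 2015). Taken singly, only *Cldn5* and *Ly6c1* of the endothelial markers and *Aqp4* of the astrocyte markers did not overlap between the groups. Mitochondrial genes took 7.20% to 9.86% of the counts in controls and 5.75% to 6.80% in OE libraries, and every OE library had more counts in all than any control, so both of these measures also separated the groups. The part of these marker genes and library measures in the 4 clock gene calls was not tested.

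**Figure D1:**
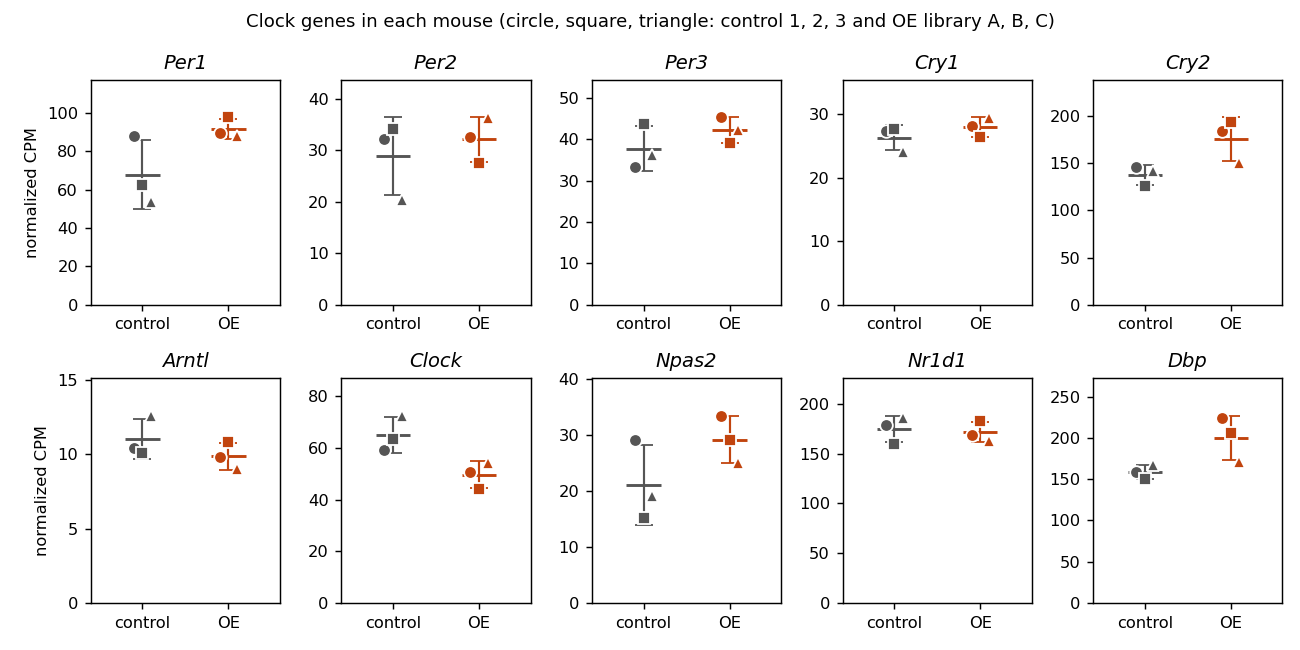
Normalized CPM of each clock gene in the 3 control and 3 *AP1AR-DT* OE mice, on axes that start at 0. Horizontal lines are group means and bars are SDs. *Clock* was below every control in all OE libraries, whereas *Nr1d1* ranged over 160 to 186 in controls and 163 to 183 in OE libraries.

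Compared per kilobase of exon, *Nr1d1* and *Dbp* were the most abundant of the 10 in control mice, at 56.9 ± 4.40 and 53.0 ± 2.74 normalized CPM per kilobase (SD, n = 3). Their ranges, 52.0 to 60.5 and 50.3 to 55.7, overlapped. *Cry2* followed at 21.8 ± 1.69, *Per1* with a range of 9.46 to 15.6, and *Cry1* at 7.88 ± 0.595, each with a range apart from its neighbors. *Per2* (4.93 ± 1.28), *Clock* (4.73 ± 0.503), *Npas2* (4.42 ± 1.49) and *Per3* (3.93 ± 0.562) had overlapping ranges. *Arntl* was the lowest, at 1.46 ± 0.178 normalized CPM per kilobase. In OE libraries *Dbp* had the highest mean, at 67.0 ± 9.07, and *Nr1d1* had 55.7 ± 3.40, with ranges of 57.1 to 74.9 and 52.9 to 59.5 that again overlapped. *Arntl* remained the lowest there, at 1.31 ± 0.124.

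Of the E-box activators *Clock*, *Npas2* and *Arntl*, *Clock* (ENSMUSG00000029238, GRCm38 chr5:76209868-76304792, minus strand), whose protein pairs with BMAL1, was the only one past the thresholds. Its normalized CPM was 59.0, 63.4 and 72.5 in controls 1, 2 and 3, and 50.6, 44.0 and 54.3 in OE A, B and C. Every OE library lay below every control, and the mean fell from 65.0 ± 6.91 to 49.7 ± 5.20 (SD, n = 3). The Log2FC was -0.39 with a standard error (SE) of 0.123, and P was 0.0156. Control 3, the highest, carries the choroid plexus, thalamic and oligodendrocyte markers. Without control 3 the Log2FC of *Clock* was -0.29 and without OE B it was -0.31, both short of the fold threshold. Correction for transcript length also ended the call, with a Log2FC of -0.25 and P of 0.0511.

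*Npas2* (chr1:39193731-39363236, plus strand), the paralog of *Clock* used mainly in the forebrain, had 29.1, 15.2 and 19.2 normalized CPM in controls and 33.5, 29.1 and 25.0 in OE libraries. Control 1 lay within the OE range and the other controls lay below it. Its Log2FC was 0.47 (SE 0.244) with P of 0.0965, so the largest difference of the 10 genes did not pass the test. Without control 1 it was 0.77 with P of 0.00527 by edgeR, and without controls 2 and 3 it was 0.012, so the estimate rests on which controls are used. The ratio of *Clock* to *Npas2* per length was 0.709, 1.45 and 1.32 in controls and 0.527, 0.528 and 0.757 in OE libraries, with control 1 below OE C.

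*Arntl* (chr7:113207465-113314126, plus strand), which encodes BMAL1, the partner of both, did not pass the test. It was at 10.4, 10.1 and 12.6 normalized CPM in controls and 9.82, 10.8 and 8.98 in OE libraries. The groups overlapped, with a Log2FC of -0.16 (SE 0.150) and P of 0.327.

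Among the *Per* genes, whose proteins form the repressor complex with CRY, *Per1* (chr11:69095217-69109960, plus strand) had 87.9, 62.2 and 53.3 normalized CPM in controls. It had 89.5, 97.7 and 87.9 in OE libraries. Control 1 and OE C were equal to 3 digits, and the other controls were lower than every OE library. The mean was 67.8 ± 18.0 in controls and 91.7 ± 5.24 in OE mice (SD, n = 3), 1.35 times as high. The Log2FC was 0.44 (SE 0.183) with P of 0.0479, close to the threshold. With any 1 mouse left out, *Per1* stayed past both thresholds only without control 1, where the Log2FC was 0.67 and P was 0.00123. Without controls 2 and 3 it was 0.063.

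*Per2* (chr1:91415982-91459324, minus strand), which takes the same part in the loop, had 32.1, 34.2 and 20.3 normalized CPM in controls and 32.5, 27.6 and 36.2 in OE libraries. Control 3 was the lowest of the 6, and the groups overlapped. The Log2FC was 0.15 (SE 0.211) with P of 0.487, and without control 3 it was -0.032. *Per3* (chr4:151003652-151044665, minus strand), which is less needed for the rhythm itself, had 33.2, 43.7 and 36.3 in controls and 45.3, 39.0 and 42.3 in OE libraries. Its groups also overlapped, with a Log2FC of 0.16 (SE 0.130) and P of 0.251.

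*Cry1* (chr10:85131700-85185064, minus strand), the stronger repressor of the cryptochromes, had 27.3, 27.7 and 24.0 normalized CPM in controls and 28.1, 26.4 and 29.5 in OE libraries. The groups overlapped, and the Log2FC was 0.09 (SE 0.107) with P of 0.427. *Cry2* (chr2:92403646-92434043, minus strand) was higher in OE mice, with 146, 126 and 142 in controls and 184, 194 and 150 in OE libraries. OE C lay near control 1, but no OE library was below a control. The mean rose from 138 ± 10.7 to 176 ± 23.2 (SD, n = 3), a Log2FC of 0.35 (SE 0.122) with P of 0.0232. *Cry2* lost the call without OE A, OE B or control 2.

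*Nr1d1* (chr11:98767932-98775333, minus strand) had 179, 160 and 186 normalized CPM in controls and 169, 183 and 163 in OE libraries. The OE range lay within that of the controls, with a Log2FC of -0.029 (SE 0.0951) and P of 0.771. It varied least of the 10 over the 6 mice, with a range of 0.22 on the log2 scale, against 1.14 for *Npas2*. Its exons overlap those of the antisense gene *Thra*, a thyroid hormone receptor, over 263 bases, or 8.55% of its exon length. Strand use in counting was not given in the sources used here, so reads of the overlap cannot be told apart. *Thra* was at 672, 610 and 559 in controls and 889, 930 and 672 in OE libraries.

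*Dbp* (chr7:45705088-45710203, plus strand) had 159, 150 and 167 normalized CPM in controls and 224, 206 and 171 in OE libraries. Controls spanned a narrow range, and OE C lay just above it. The mean rose from 159 ± 8.20 to 201 ± 27.1 (SD, n = 3), 1.26 times as high, with a Log2FC of 0.34 (SE 0.117) and P of 0.0232. The call was lost without OE A, OE B, control 1 or control 2, where the Log2FC was between 0.25 and 0.34. After correction for transcript length the Log2FC was 0.27, below the fold threshold. *Dbp* overlaps the antisense gene *Sphk2*, a sphingosine kinase, over 539 bases, or 18.01% of its exon length, and *Sphk2* had 49.7, 45.3 and 48.7 in controls and 57.2, 59.9 and 55.4 in OE libraries. How far reads of *Sphk2* entered the *Dbp* count was not tested.

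By the longest transcript, the 3 higher genes were among the 4 clock genes with the most GC, the other being *Nr1d1*. *Clock* had the least. The GC content of the longest transcript was 61.6% for *Dbp*, 59.4% for *Per1* and 55.6% for *Cry2*, and 40.9% for *Clock*. The Log2FC of all genes rose with GC content. In 20 groups of genes ordered by it, the median Log2FC was -0.34 in the group with the least GC and 0.25 in the group with the most. In the group that holds *Clock*, 20.8% of genes passed the thresholds downward and 0.549% upward. In the group that holds *Dbp*, 20.7% passed upward and 1.83% downward, and the upward share was 14.2% in the group of *Per1* and 9.99% in that of *Cry2*. Single clock genes lay off these medians. *Nr1d1*, with 56.8% GC, had a Log2FC of -0.029, below the median of 0.17 in its group. *Clock* (-0.39 against -0.28) and *Arntl* (-0.16 against -0.038) also lay below theirs. The other clock genes lay above theirs, the furthest being *Npas2* (0.47 against 0.093).

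When the counts of every library were adjusted along a spline of GC content, none of the 10 clock genes passed the thresholds, while 7.17% of all genes did. Of the 10, *Nr1d1* alone then had P under 0.05 by edgeR, at 0.0351, with a Log2FC of -0.21, below the fold threshold. The Log2FC of *Dbp* went from 0.34 to 0.059, with P of 0.544 by edgeR, and that of *Clock* from -0.39 to -0.14, with P of 0.190. *Per1* went from 0.44 to 0.20, with P of 0.299, and *Cry2* from 0.35 to 0.19, with P of 0.0948. *Npas2* went from 0.47 to 0.38, with P of 0.152. The median of the 10 was 0.044 after correction. The mean GC content over the transcripts of each gene gave another order. By it *Npas2* (57.9%) lay above *Dbp* (56.7%), and *Cry2* (52.6%) lay below *Nr1d1* (56.4%) and *Per2* (56.0%). Correction with this mean also left none of the 10 past the thresholds. The Log2FC was then 0.27 for *Cry2*, with P of 0.0404, 0.27 for *Npas2* and 0.17 for *Dbp*. What made the libraries differ by GC content was not tested.

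**Figure D2:**
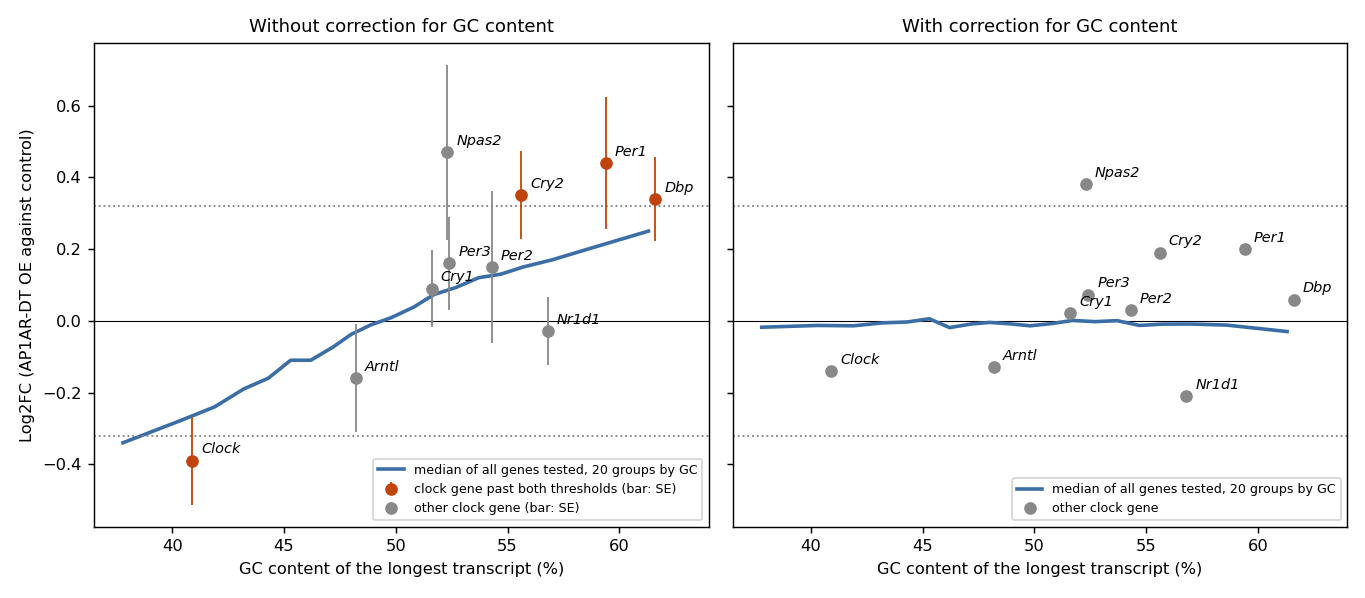
Log2FC of the 10 clock genes against the GC content of the longest transcript, without (left, bars are SEs) and with (right) correction of each library for GC content. The blue line is the median of all genes tested in 20 groups, from -0.34 to 0.25 on the left and near 0 on the right. Dotted lines mark a Log2FC of 0.32 in either direction, and no clock gene is past both thresholds on the right.

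To set clock genes of different peak times side by side, a score was taken within each mouse, where the scaling of the library cancels. The score was the mean log2 level of *Per1*, *Per2*, *Per3*, *Nr1d1* and *Dbp* minus that of *Arntl*, *Clock*, *Npas2* and *Cry1*. It was 1.54, 1.70 and 1.37 in controls and 1.73, 1.76 and 1.75 in OE libraries. The OE libraries lay close together and above every control, by 0.21 on average, and no test was made of this score. The score includes *Per1*, *Dbp* and *Clock*, which had passed the thresholds, so it is not separate from those calls. *Cry2*, which had also passed them, was left out of the score because its rhythm is weak. After correction for GC content the values were 1.64, 1.83 and 1.45 in controls and 1.62, 1.57 and 1.73 in OE libraries. These groups overlapped and their means differed by -0.00089.

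*Dbp* minus *Arntl*, a widely used pair of opposed phase, was 3.93, 3.90 and 3.73 on the log2 scale in controls and 4.51, 4.25 and 4.25 in OE libraries, a difference of 0.49 with no overlap. After correction it was 0.18 and the groups overlapped, and with the mean GC content over transcripts it was 0.27 and they did not. *Nr1d1* minus *Arntl*, the pair of the second loop, was 4.10, 3.99 and 3.89 in controls and 4.10, 4.08 and 4.18 in OE libraries. It overlapped between the groups, with a difference of 0.13, and after correction the difference was -0.081.

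**Figure D3:**
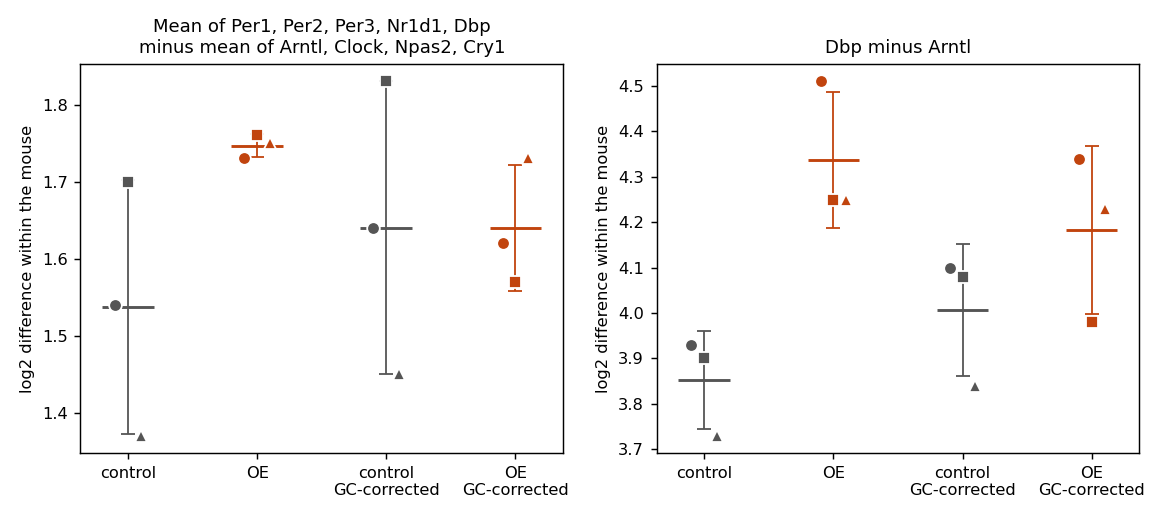
Difference of log2 normalized CPM within each mouse for the score of clock genes (left) and for *Dbp* and *Arntl* (right), before and after correction for GC content. Points are mice (circle, square and triangle for control 1, 2 and 3 or OE A, B and C), lines are means and bars are SDs, and the vertical axes do not start at 0. The mean difference between the groups went from 0.21 to -0.00089 on the left and from 0.49 to 0.18 on the right.

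Over the 6 mice, the genes with profiles most like that of *Dbp* were *Ppp1ca*, *Dgkd*, *Sra1*, *Alkbh7* and the processed pseudogene *Gm13450*. Likeness was the root mean square difference of log2 levels centred on the mean over the 6 mice, among 13524 genes with a mean of at least 5 normalized CPM, and it was 0.0173 to 0.0379 for these genes. *Cry2* came at rank 65 of that order, with 0.0721, and *Per1* at rank 6527. Nearest to *Arntl* were *Dck*, *Sat2*, *Vti1a*, *Add3* and *Trim37*, starting at 0.0439 for *Dck*, and *Nr1d1* came at rank 134. No clock gene was among the 5 nearest to either.

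In the wider clock, 4 of 28 further genes passed the thresholds, 1 upward and 3 downward, where 12.2% of all genes tested passed in either direction, 5.10% upward and 7.15% downward. With numbers this small, the count is near that background. The median Log2FC of the 28 was -0.075, beside -0.014 for all genes tested. *Tef*, which encodes an activator that binds D-boxes as DBP does, was the gene that rose, with 409, 381 and 361 normalized CPM in controls and 540, 482 and 428 in OE libraries. Its groups did not overlap, the Log2FC was 0.33 and P was 0.0205, and after correction for GC content it was 0.22 with P of 0.0609 by edgeR. *Hlf*, the third activator of that family, did not follow it, with a Log2FC of -0.19 and P of 0.302, and control 3 held its highest value, 205.

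*Nr1d2*, the paralog of *Nr1d1*, had 92.4, 104 and 118 normalized CPM in controls and 94.6, 78.8 and 102 in OE libraries, with a Log2FC of -0.19 and P of 0.195. The E-box repressor genes *Bhlhe40* and *Bhlhe41* had Log2FC of 0.076 and 0.048, with P of 0.692 and 0.629. *Ciart*, a rhythmic repressor of the loop, had 9.12, 8.82 and 9.23 in controls and 13.7, 11.0 and 8.99 in OE libraries, a Log2FC of 0.31 with P of 0.122. None of these 4 genes passed the test.

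*Rora* and *Rorb*, whose proteins activate *Arntl*, passed the thresholds downward, with a Log2FC of -1.93 and P of 0.0417 for *Rora* and of -0.57 and P of 0.0354 for *Rorb*. *Rora*, also a thalamic marker, was at 32.8, 48.9 and 140 normalized CPM in controls and 28.5, 25.4 and 4.23 in OE libraries. *Rorb* had 21.6, 31.4 and 41.0 in controls and 20.8, 20.5 and 22.1 in OE libraries. Both were highest in control 3, which led the thalamic list, and without controls 2 and 3 their Log2FC were -0.76 and -0.031, with P of 0.439 and 0.850.

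*Avp*, the neuropeptide vasopressin and an output of the suprachiasmatic clock, had 0.172, 184 and 15.1 in controls and 0.321, 0.872 and 0.400 in OE libraries. The Log2FC of -6.96, with P of 0.0109 by edgeR, rests on controls 2 and 3, and without both it was 1.61. *Avp* is itself on the hypothalamic list, whose sum was highest in control 2. Of its other members, *Oxt*, *Pomc*, *Trh* and *Vip* were also highest in control 2, and *Hcrt* and *Pmch* in control 3. Of the 11 enzymes, ligase subunits and partners that act on PER and CRY proteins, none passed the thresholds. After correction for GC content 3 of the 28 passed, where 7.17% of all genes tested did. These were *Btrc*, *Timeless* and *Avp*, the first and second of which are named only because the count is small.

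*Per1* and *Per2* can also be induced without the clock, by neuronal activity and by glucocorticoids. None of 10 genes induced by activity, with a median Log2FC of 0.32, passed the thresholds, where 12.2% of all genes tested did. This count rests on control 1. Without it, 7 of the 10 passed upward, where 15.0% of all genes passed in either direction, and *Arc* had a Log2FC of 0.94 with P of 0.00241 by edgeR. Without controls 2 and 3, the median Log2FC of the 10 was -0.28, and that of *Fos* was -1.18. *Fos* was at 44.4, 19.4 and 6.19 normalized CPM in controls and 15.2, 23.5 and 20.1 in OE libraries, and *Arc* was at 151, 63.9 and 49.3 in controls and 89.3, 124 and 112 in OE libraries. In both genes control 1 was the highest library and control 3 the lowest control, the order that *Per1* had among the controls.

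Of 6 genes that respond to glucocorticoids, *Zbtb16* alone rose past the thresholds, where 5.10% of all genes tested did. *Zbtb16* had 9.54, 10.3 and 11.8 normalized CPM in controls and 16.3, 14.9 and 13.9 in OE libraries. Its Log2FC was 0.51 and P was 0.0076 by edgeR, with an adjusted P of 0.295. *Fkbp5*, a classic target of the glucocorticoid receptor, had 34.4, 33.4 and 36.8 in controls and 43.5, 38.3 and 40.6 in OE libraries, with no overlap, a Log2FC of 0.23 and P of 0.0520. *Tsc22d3* had a Log2FC of 0.30 with P of 0.0267 by edgeR, short of the fold threshold, and *Klf9* went the other way, at -0.24. The groups did not overlap for 3 of the 6 genes, *Zbtb16*, *Fkbp5* and *Tsc22d3*, and for 22.4% of all genes tested. Whether activity or glucocorticoids bear on *Per1* in these mice was not tested.

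**Figure D4:**
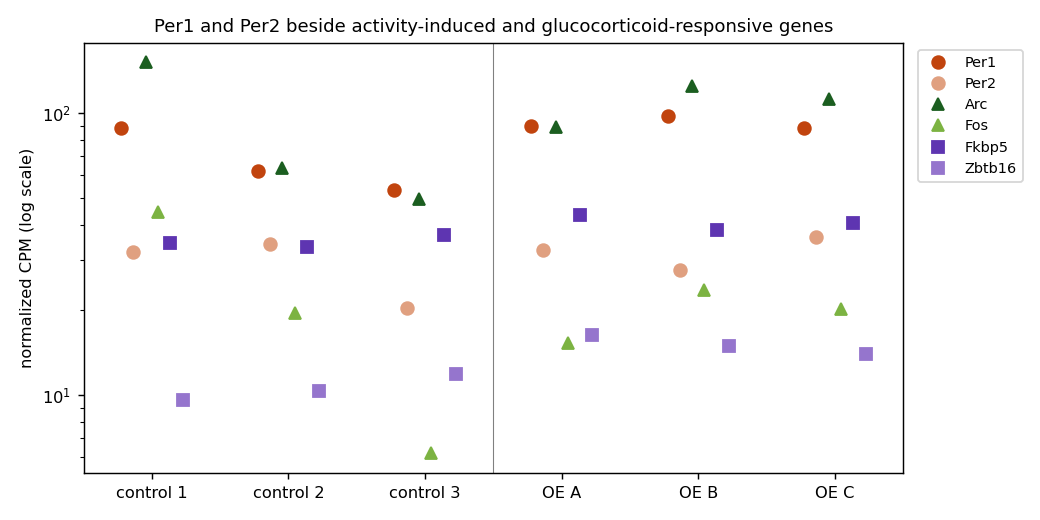
Normalized CPM on a log scale of *Per1* and *Per2* (circles), the activity-induced *Arc* and *Fos* (triangles) and the glucocorticoid-responsive *Fkbp5* and *Zbtb16* (squares) in each mouse. Among the controls *Per1*, *Arc* and *Fos* were all highest in control 1 and lowest in control 3, and *Per2* was lowest in control 3, at 20.3.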

How the data were processed

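The authors deposited 1 table with raw counts per gene for 6 brain libraries. By their methods, reads were mapped to GRCm38 with Bowtie2 and counted with StringTie, versions not given in the sources used here. The submitters' processing notes name other tools, TopHat2 2.0.4, HTSeq, Cuffdiff and edgeR 2.6.12, and mm9. The deposited columns of mean normalized signal, log2 fold change and its error, Wald score, and raw and adjusted P-value come from the authors' DESeq2 comparison and were not used. Totals of 42061721 to 54668294 counts leave the spread between mice as the limit on precision. The labels name each library as a separate mouse.

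Counts were tested in R 4.3.3 with edgeR 4.0.16 (filterByExpr, TMM, quasi-likelihood F-test, two-sided, Benjamini-Hochberg over all genes tested), without covariates. DESeq2 1.42.0, limma-voom (limma 3.58.1), DESeq2 size factors, library totals, other filters, curves of GC content or transcript length (splines with 5 degrees of freedom, as offsets) and leaving out mice were the alternatives, 16 in all. In simulated counts of 21233 genes tested, the test recovered 151 of 197 genes changed by 1 on the log2 scale. Of the unchanged genes, 908 also passed the thresholds. The largest Log2FC of the clock genes was 0.47, so this recovery does not apply to changes of their size. Exact permutation tests used log2(normalized CPM + 0.5). Gene positions and GC content came from GENCODE vM21, matched by identifier for 52133 of 52390 genes, since the table's own positions mostly differ from GRCm38.

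The clock genes, lists, marker genes and tests were chosen with earlier results of these data known. Named are all 10 clock genes, *Nr1d2*, *Tef*, *Hlf*, *Bhlhe40*, *Bhlhe41*, *Ciart*, *Fos*, *Arc* and *Fkbp5*, list members past the thresholds, and the 5 genes nearest to *Dbp* and *Arntl*. Antisense partners, single markers, *Tsc22d3* and *Klf9* were named after their values were seen.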

Additional observations from a re-analysis of the deposited data

How the results depend on the processing

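No paired analysis was possible because the groups share only mouse number 3 in the labels and the OE columns carry no mouse number. A correction with the mean GC content over transcripts and a fit without controls 2 and 3 were chosen after seeing the data. The number of clock genes past the thresholds, 4, was 0 after either GC correction and without controls 2 and 3, and 2 after correction for transcript length, which kept *Per1* and *Cry2*. It was 0 to 4 with 1 mouse left out, with 0 without OE B, 1 without OE A or control 2, and 2 without control 3. It was within 1.5 times of 4 under the other test tools, scalings and filters, and no clock gene had an adjusted P under 0.05 in any of 17 fits. Of 160 recomputed Log2FC values of the 10 clock genes, 3 changed sign. The 4 wider clock genes became 2 after length correction and 1 without controls 2 and 3, and 1 to 4 with 1 mouse left out (2 without OE A or OE B, 1 without control 3). The 1 inducible gene became 2 after GC correction (*Zbtb16* and *Tsc22d3*) and 2 with limma-voom, 4 without controls 2 and 3, and 1 to 8 with 1 mouse left out, the 8 without control 1 (7 of them activity genes), 3 without control 3 and 2 without OE A or control 2. The difference between the phases, 0.21, was -0.00089 after GC correction and 0.0064 with the mean over transcripts, and 0.12 to 0.29 with 1 mouse left out. The sign of the Log2FC turned for *Nr1d2* after GC correction (0.027), *Fos* with limma-voom (0.20), and *Avp* (1.61) and *Arc* (-0.47) without controls 2 and 3. With 1 mouse left out, *Per2* ranged from -0.032 to 0.30, *Nr1d1* from -0.081 to 0.031, *Hlf* from -0.30 to 0.026, *Bhlhe40* from -0.063 to 0.27, *Bhlhe41* from -0.023 to 0.11 and *Fos* from -0.69 to 0.62. Leaving out mice also lowers the number of samples, and for the rest the cause was not tested.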
